A study of Mus musculus with 8 samples.

Results

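The nephron segments beyond the proximal tubule were followed in RNA from isolated mouse glomeruli through 10 genes, *Umod*, *Kcnj1*, *Calb1*, *Pvalb*, *Egf*, *Cdh16*, *Aqp2*, *Aqp3*, *Scnn1a* and *Klk1*. They were taken by gene symbol from an expression table that lists 18120 symbols, and all 10 were listed, through 12 of the 25697 probes. A probe was called detected on an array when its detection p-value, the share of that array's negative-control probes with at least the same signal, was 0.05 or lower. By this measure 7 of the 10 genes were detected on at least 1 array, against 11240 of the 18120 symbols.

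The series compared 4 *Cd151*+/+ with 4 *Cd151*-/- FVB/N mice, all male and 3 weeks old, with 1 mouse per Illumina MouseRef-8 v1.1 array. *Cd151* encodes a tetraspanin, a membrane protein that partners laminin-binding integrins, and the *Cd151*-/- mice carry a homozygous deletion in every cell. The mice were numbered 1 to 4 within each genotype. Glomeruli were collected on magnetic beads perfused through the heart, and the kidney tissue around them was digested and washed away, so any tubule RNA in the isolates had been carried through these steps.

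A glomerulus is the filter at the head of the nephron, built from podocytes, fenestrated endothelium and mesangial cells. Its filtrate passes through the proximal tubule, the loop of Henle, the distal convoluted and connecting tubules and the collecting duct, and each of these epithelia carries its own channels and transporters. The thick ascending limb of the loop reabsorbs salt without water and secretes uromodulin, the distal convoluted tubule handles salt and magnesium, and the collecting duct sets the final water and sodium content of the urine. In whole-isolate RNA a lower signal from a segment's gene may reflect a smaller share of that segment's cells in the isolate or less of its RNA per cell. These cannot be told apart.

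The arrays fell into 2 sets of 4 by their background, the mean signal of negative controls as inferred from the detection p-values. It was 59.0 to 69.5 intensity units on the lower-background arrays, which were those of *Cd151*+/+ mice 1 and 2 together with *Cd151*-/- mice 3 and 4. On the higher-background arrays, those of the remaining mice, it was 123.4 to 134.7. Each set held 2 mice of each genotype, and what the sets correspond to in the laboratory is not given in the sources used here. Between 11291 and 11381 probes were detected per array in the lower-background set and between 11800 and 12359 in the higher. The 3 *Cd151* probes were detected on 4 of 4 *Cd151*+/+ arrays and on 0 of 4 *Cd151*-/- arrays, and the brightest fell from a normalised log2 signal of 14.37 ± 0.24 to 4.57 ± 0.08 (SD, n = 4 each, limma adjusted p = 6.51e-10). The podocyte gene *Ptpro* was detected on all 8 arrays, at 13.46 ± 0.27 in *Cd151*+/+ and 13.03 ± 0.42 in *Cd151*-/- mice (SD, n = 4 each).

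RefSeq promoters (GRCm38.p6) were at hand for 7 of the 10 genes, and 3 are printed, 1 for the loop gene with the most signal over background, *Umod*, and 2 for the collecting duct water channels *Aqp2* and *Aqp3*, whose signals behaved differently across the array sets. Each line gives the 250 bases before the start site, 5′ to 3′ on the strand of the gene, and capitals mark a match, on either strand, to the hepatocyte nuclear factor 1 motif GTTAAT, the TATA box TATAAA or the E-box CACGTG.
Umod, chr7:119479263-119479512, minus strand: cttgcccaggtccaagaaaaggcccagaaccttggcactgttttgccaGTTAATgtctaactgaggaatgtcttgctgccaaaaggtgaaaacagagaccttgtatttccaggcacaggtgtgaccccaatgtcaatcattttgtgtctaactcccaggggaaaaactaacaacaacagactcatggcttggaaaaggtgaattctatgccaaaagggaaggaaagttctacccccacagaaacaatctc
Aqp2, chr15:99578806-99579055, plus strand: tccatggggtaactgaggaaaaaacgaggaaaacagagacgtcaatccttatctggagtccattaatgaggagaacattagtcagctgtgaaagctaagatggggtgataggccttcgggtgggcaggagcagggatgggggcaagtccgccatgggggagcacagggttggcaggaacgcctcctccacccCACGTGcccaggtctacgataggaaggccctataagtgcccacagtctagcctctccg
Aqp3, chr4:41098184-41098433, minus strand: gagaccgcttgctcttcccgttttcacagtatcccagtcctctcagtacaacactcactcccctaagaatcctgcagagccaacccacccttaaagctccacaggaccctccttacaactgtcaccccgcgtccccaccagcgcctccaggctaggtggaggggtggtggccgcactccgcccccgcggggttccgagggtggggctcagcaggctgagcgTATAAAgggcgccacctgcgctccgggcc
GTTAAT was found in *Umod* alone of the 7 members with a promoter, starting 202 bases before the start site, TATAAA in *Aqp3* alone, 29 bases before it, and CACGTG in *Aqp2* alone, 58 bases before it. Of 32851 RefSeq promoter windows of the same length, 6.43% held GTTAAT, 12.4% TATAAA and 6.02% CACGTG, so each match is a description of the sequence. The arrays measured RNA only, and factor binding at these promoters was not measured.

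The 10 genes differed in how far they rose above background. *Umod*, *Egf*, *Cdh16*, *Pvalb* and *Scnn1a*, which are listed under the loop, the distal tubule and the collecting duct, were detected on all 8 arrays. The collecting duct water channels were near the detection limit, *Aqp3* on 7 of 8 arrays and *Aqp2* on 4 of 8. *Kcnj1*, *Calb1* and *Klk1* were detected on 0 of 8 arrays and were not tested.

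**Figure D1:**
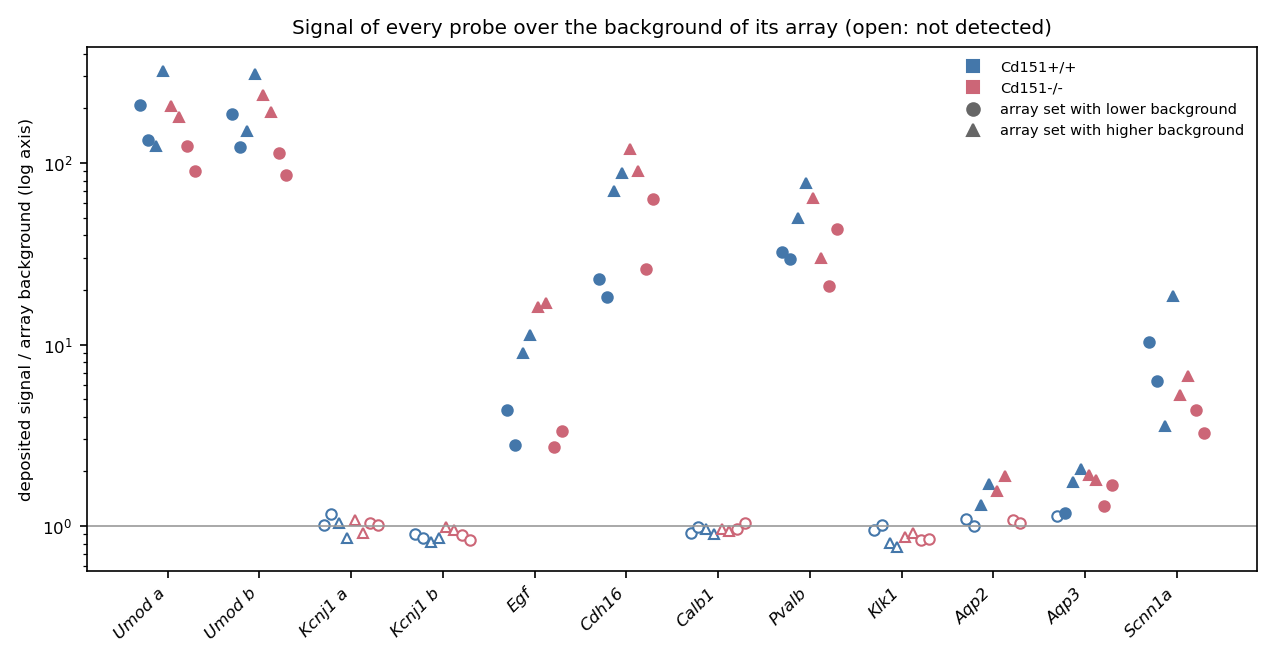
Deposited signal of each of the 12 probes divided by the background of its array (log axis), 1 point per mouse, coloured by genotype and shaped by array set, with open symbols where the probe was not detected and a line at a ratio of 1. The letters a and b mark the brighter and the dimmer of 2 probes of 1 gene. The *Umod* probes lie between 86.4 and 322 times background in every mouse, while the probes of *Kcnj1*, *Calb1* and *Klk1* lie between 0.77 and 1.16.

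*Umod* encodes uromodulin, the main protein that the thick ascending limb secretes into urine. Its brighter probe read 208, 133, 124 and 322 times background in *Cd151*+/+ mice 1 to 4 and 206, 178, 124 and 90.8 times in *Cd151*-/- mice 1 to 4. The isolate of every mouse gave a signal far above background. On the normalised log2 scale, on which all later levels and differences are given, *Umod* stood at 14.74, 14.09, 13.70 and 14.71 in the *Cd151*+/+ and at 14.03, 13.90, 13.99 and 13.15 in the *Cd151*-/- mice. The highest mice were *Cd151*+/+, the lowest was *Cd151*-/- mouse 4, and the genotypes overlapped. The group means were 14.31 ± 0.51 and 13.77 ± 0.42 (SD, n = 4 each), a difference of -0.54 (SE 0.30, 95% interval -1.21 to 0.13) that did not pass the test (limma adjusted p = 0.918, two-sided exact permutation p = 0.2). It was -0.84 within the lower-background and -0.24 within the higher-background set. The dimmer probe differed by -0.51 (exact permutation p = 0.171).

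*Egf* encodes the epidermal growth factor precursor, made by the thick ascending limb and distal convoluted tubule. It read 9.03, 8.14, 9.91 and 9.75 in *Cd151*+/+ and 10.23, 10.26, 8.18 and 8.34 in *Cd151*-/- mice. Every mouse of the higher-background set lay above every mouse of the lower, which held for 13.6% of all tested probes. The means of the sets were 10.04 and 8.42, whereas the genotype means were 9.21 ± 0.81 and 9.25 ± 1.15 (SD, n = 4 each). The genotype difference was 0.04 (SE 0.55, 95% interval -1.17 to 1.26, limma adjusted p = 0.992), and its sign turned when any of 4 mice was left out, with values from -0.31 to 0.40. It was -0.33 within the lower-background set, where the genotypes overlapped. Within the higher-background set it was 0.41, and both *Cd151*-/- mice lay above both *Cd151*+/+ mice.

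*Cdh16* encodes kidney-specific cadherin, an adhesion protein of tubule epithelium that is not limited to the loop. Its values were 11.57, 11.11, 12.91 and 12.89 in *Cd151*+/+ and 13.21, 12.82, 11.76 and 12.69 in *Cd151*-/- mice. All 4 mice of the higher-background set again lay above the other 4, by 1.18 on average, and *Cd151*-/- mouse 4 was the highest of the lower-background set. The genotypes overlapped, at 12.12 ± 0.92 and 12.62 ± 0.62 (SD, n = 4 each), with a difference of 0.50 (SE 0.45, 95% interval -0.49 to 1.49, limma adjusted p = 0.918). It was 0.88 within the lower-background set and 0.12 within the higher.

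*Kcnj1* encodes the apical potassium channel ROMK, which recycles potassium in the thick ascending limb and secretes it in the collecting duct. Its brighter probe read 0.86 to 1.16 times background over the 8 mice and its dimmer probe 0.81 to 0.99. Neither rose above the negative controls on an array where *Umod*, a gene of the same segment, was bright, and a transcript below the detection limit of these probes cannot be told apart from none.

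Of the distal convoluted and connecting tubule genes only *Pvalb* was detected. *Pvalb* encodes parvalbumin, a calcium-binding protein of the early distal convoluted tubule, and read 12.05, 11.84, 12.40 and 12.70 in *Cd151*+/+ and 12.31, 11.13, 11.47 and 12.17 in *Cd151*-/- mice. The genotypes overlapped and *Cd151*-/- mouse 2 was the lowest. The means were 12.25 ± 0.38 and 11.77 ± 0.56 (SD, n = 4 each), a difference of -0.48 (SE 0.31, 95% interval -1.16 to 0.20) that did not pass the test (limma adjusted p = 0.918, exact permutation p = 0.229). The difference was -0.13 within the lower-background set and -0.83 within the higher. *Calb1*, encoding calbindin, the calcium buffer of the connecting tubule, read 0.90 to 1.04 times background, and *Klk1*, encoding tissue kallikrein of the same segment, 0.77 to 1.02 times.

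*Scnn1a*, listed here under the collecting duct, showed the largest genotype difference among the 7 tested members. It encodes the alpha subunit of the epithelial sodium channel ENaC, which reabsorbs sodium under aldosterone, and read 10.37, 9.51, 8.28 and 10.56 in *Cd151*+/+ and 8.41, 8.77, 9.01 and 8.29 in *Cd151*-/- mice. Among the *Cd151*+/+ mice, 3 lay above every *Cd151*-/- mouse, while *Cd151*+/+ mouse 3 was the lowest of all 8, so the genotypes overlapped. The means were 9.68 ± 1.04 and 8.62 ± 0.33 (SD, n = 4 each), a difference of -1.06 or 2.08-fold (SE 0.44, 95% interval -2.03 to -0.08), with a limma unadjusted p of 0.0361, an adjusted p of 0.918 and a two-sided exact permutation p of 0.143, where 0.0286 is the smallest that 4 against 4 allows. The difference was -1.29 within the lower-background and -0.83 within the higher-background set. Without *Cd151*+/+ mouse 3 it was -1.52 (limma unadjusted p = 0.000721, adjusted p = 0.702), and without *Cd151*+/+ mouse 4 it was -0.77 (limma unadjusted p = 0.113). *Scnn1a* and the brighter *Umod* probe had the same 3 highest mice, *Cd151*+/+ mice 1, 2 and 4, although they are listed under different segments. This did not hold for the dimmer *Umod* probe, on which *Cd151*-/- mouse 1 (14.20) lay above *Cd151*+/+ mouse 2 (13.95). Over the 8 mice the Pearson r of *Scnn1a* with the brighter *Umod* probe was 0.89, and 0.93 with the mean of each array set taken out. It was the highest r among pairs of members detected on all 8 arrays. Which segment gave the *Scnn1a* signal was not tested.

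*Aqp2* encodes the water channel that vasopressin moves to the apical membrane of principal cells. It was detected on 4 of 4 arrays of the higher-background set and on 0 of 4 of the lower. It read 5.02, 4.71, 5.59 and 6.15 in *Cd151*+/+ and 5.85, 6.30, 4.96 and 4.79 in *Cd151*-/- mice. The sets did not overlap, with means of 4.87 and 5.97, while the genotype means, 5.37 ± 0.64 and 5.47 ± 0.72 (SD, n = 4 each), differed by 0.10 (SE 0.40, 95% interval -0.78 to 0.98, limma adjusted p = 0.967). Leaving out 1 mouse gave values from -0.16 to 0.35.

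*Aqp3* encodes the basolateral water and glycerol channel of the same cells. It read 5.24, 5.49, 6.64 and 6.65 in *Cd151*+/+ and 6.36, 6.15, 6.02 and 6.90 in *Cd151*-/- mice, with means of 6.01 ± 0.75 and 6.36 ± 0.39 (SD, n = 4 each). The genotype difference was 0.35 (SE 0.36, 95% interval -0.44 to 1.15, limma adjusted p = 0.918). It ran in opposite directions in the array sets, 1.09 in the lower-background and -0.39 in the higher-background set, with no overlap of the genotypes within either. Among all tested probes 3.66% did so. The difference between these differences was -1.48 (SE 0.44), with a limma unadjusted p of 0.00854 and an adjusted p of 0.977.

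**Figure D2:**
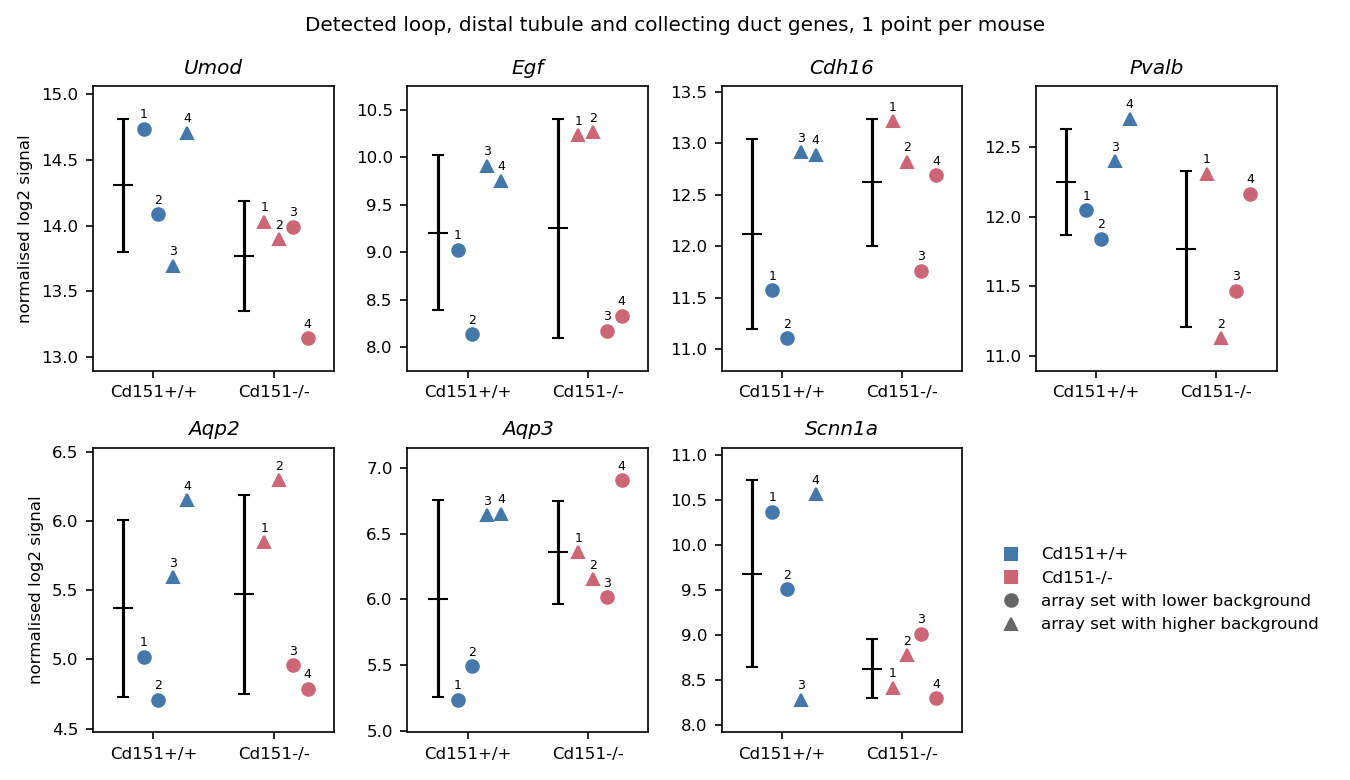
Normalised log2 signal of the 7 detected genes, with 1 numbered point per mouse, coloured by genotype and shaped by array set, and bars for the mean and SD of each genotype (n = 4). The axes differ between panels. *Scnn1a* has 3 *Cd151*+/+ mice above all *Cd151*-/- mice and 1 below them, and in *Egf*, *Cdh16* and *Aqp2* the triangles of the higher-background set all lie above the circles.

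Counted over the members, the genotype difference was positive for 4 genes and negative for 3, with a median of 0.04 beside -0.01 over all 14967 tested probes. This median took either sign, from -0.31 without *Cd151*+/+ mouse 2 to 0.28 without *Cd151*-/- mouse 3, and was -0.22 when only probes detected on all 4 arrays of a genotype were kept. Of the 7 tested members, 1, *Scnn1a*, passed an unadjusted p of 0.05, beside 4.3% of all tested probes, and 0 passed after Benjamini-Hochberg adjustment, beside 0.0334%. None of the 7 had genotypes that did not overlap, beside 2.31% of all probes. The intervals were wide, so differences such as a 2-fold change, 1 on the log2 scale, in one direction or the other lay inside the 95% interval of *Umod*, *Egf*, *Cdh16*, *Pvalb*, *Aqp3* and *Scnn1a*.

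The array sets separated more members than the genotypes did. *Egf*, *Cdh16* and *Aqp2*, 3 of the 7, were higher in every mouse of the higher-background set, which held for 13.6% of all tested probes, and 0 of the 7 were lower in every such mouse, which held for 11.6%. *Umod* and *Pvalb* differed between the sets by 0.09 and 0.25, *Aqp3* by 0.54 and *Scnn1a* by -0.29, with overlap in each. With a term for the genotype difference to differ between the sets, the adjusted p of that term was at least 0.977 for each of the 7 (limma), and with the array set as a block none passed adjustment.

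**Figure D3:**
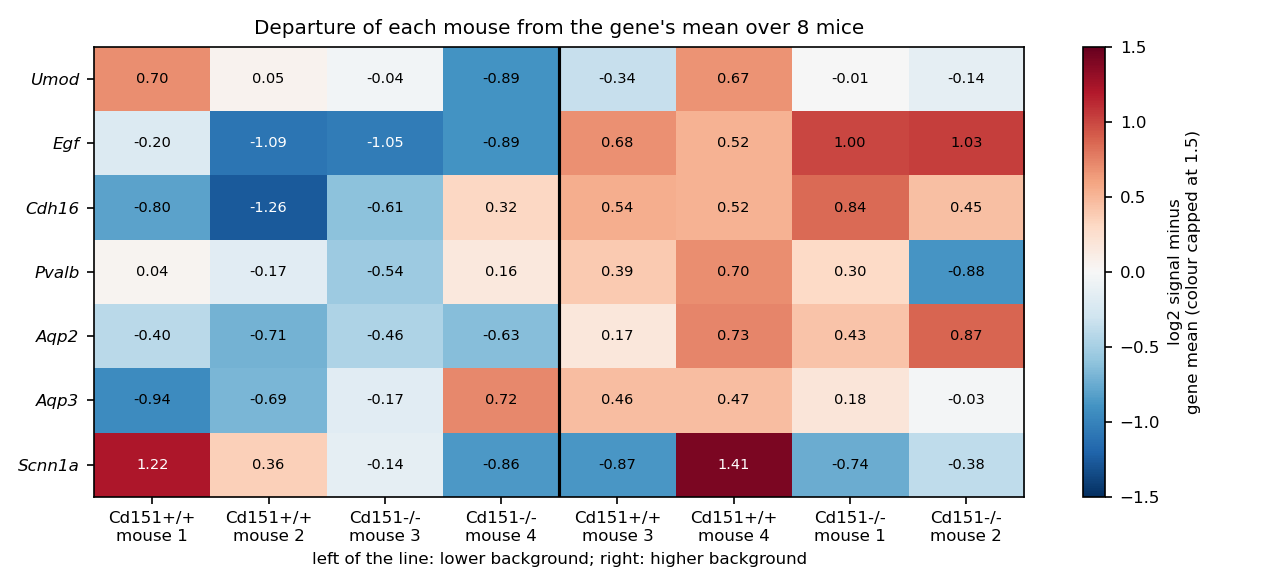
Departure of each mouse from the gene's mean over 8 mice, in log2 units, for the 7 detected genes, with red above and blue below the mean and a line between the lower-background set on the left and the higher-background set on the right. *Egf*, *Cdh16* and *Aqp2* change colour mostly at the line, whereas *Umod* and *Scnn1a* are highest in *Cd151*+/+ mice 1 and 4 on either side of it.

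Other genes of the same segments were read from lists of their known markers. Of 37 such genes listed in the table, 27 were tested. The difference was positive for 7 and negative for 20 of them, with a median of -0.13, and 0 passed an unadjusted p of 0.05, the lowest being 0.0532. In the thick ascending limb 2 of 11 were higher and 9 lower, with a median of -0.31. *Slc12a1*, the sodium-potassium-chloride cotransporter NKCC2 that drives salt uptake there, read 13.31 ± 0.55 in *Cd151*+/+ and 12.79 ± 0.60 in *Cd151*-/- mice (SD, n = 4 each), a difference of -0.52 (SE 0.35, limma adjusted p = 0.918). Its values were 13.83, 12.88, 12.80 and 13.74 in the *Cd151*+/+ and 13.18, 12.86, 13.20 and 11.92 in the *Cd151*-/- mice. As with *Umod*, *Cd151*+/+ mice 1 and 4 were the highest and *Cd151*-/- mouse 4 the lowest. *Cldn16*, a claudin of the paracellular magnesium pathway, differed by -0.67 (SE 0.37, limma adjusted p = 0.918). The 2 genes with a positive difference were *Cldn10*, a claudin of the paracellular sodium pathway, at 0.44 (SE 0.35, detected on 8 of 8 arrays), and *Ptger3*, a prostaglandin E2 receptor gene with the lowest p of the list. *Ptger3* read 4.76 ± 0.21 in *Cd151*+/+ and 5.29 ± 0.39 in *Cd151*-/- mice (SD, n = 4 each) and was detected on 1 *Cd151*-/- array alone. *Cldn10* was named after its value was seen.

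In the distal convoluted and connecting tubule 2 of 8 tested genes were higher and 6 lower, with a median of -0.11. *Slc12a3*, the thiazide-sensitive sodium-chloride cotransporter, was detected on all 8 arrays and differed by -0.13 (SE 0.36). The kinase gene *Wnk4*, listed on the array as *Prkwnk4*, differed by -0.42 (SE 0.36) and the potassium channel gene *Kcnj16* by 0.36 (SE 0.34). The limma adjusted p of each of these genes was at least 0.918.

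Few of the listed markers of collecting duct cells were detected on all 8 arrays, 1 of 7 for principal and 2 of 9 for intercalated cells. The member *Scnn1a*, detected on all 8, is not among these. Of 7 principal cell genes listed, 4 were tested, 2 higher and 2 lower, with a median of 0.03. The other ENaC subunits differed by 0.15 (*Scnn1b*, SE 0.41, detected on 8 of 8 arrays) and 0.45 (*Scnn1g*, SE 0.38, detected on 3 of 8), in the direction opposite to *Scnn1a*, and *Hsd11b2*, the enzyme that shields the mineralocorticoid receptor from cortisol and corticosterone, differed by -0.22 (SE 0.35). Of 9 intercalated cell genes 4 were tested, 1 higher and 3 lower, with a median of -0.04. *Atp6v1b1*, a subunit of their proton pump, differed by -0.22 (SE 0.27, detected on 6 of 8 arrays) and *Slc26a4*, the anion exchanger pendrin, by 0.09 (SE 0.39). The limma adjusted p of each of these 5 genes was at least 0.918.

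Markers of the proximal tubule, the segment between the glomerulus and the loop, had another pattern over the mice than the members. All 19 listed genes were tested, 18 higher and 1 lower in *Cd151*-/- mice, with a median of 0.67, which was 1.44 within the lower-background and 0.03 within the higher-background set. Of the 19, 2 passed an unadjusted p of 0.05, the organic anion transporter gene *Slc22a8* (1.45, SE 0.32, adjusted p = 0.744), the only one whose genotypes did not overlap, and the kidney androgen-regulated gene *Kap* (1.38, SE 0.57, adjusted p = 0.918), and 0 passed after adjustment (limma). The endocytic receptor gene *Lrp2* was detected on 2 *Cd151*-/- arrays and 0 *Cd151*+/+ arrays. The summed linear signal of the 19 genes was 36547 to 111908 among *Cd151*+/+ mice and 66039 to 140382 among *Cd151*-/- mice. That of the 7 tested members was 24394 to 43544 and 21039 to 33011, in the same order of genotypes, and that of the other 27 distal nephron genes 29914 to 57855 and 29244 to 50677. *Cd151*-/- mouse 4 had the highest proximal tubule sum and the lowest sum of both distal groups.

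The glomerular markers were read beside these. Podocyte genes were higher in 1 and lower in 8 of 9 tested, with a median of -0.22, and their summed signal was 71797 to 83404 among *Cd151*+/+ and 55708 to 79983 among *Cd151*-/- mice, lowest in *Cd151*-/- mouse 4. The phospholipase gene *Plce1* differed by -0.56 (SE 0.24, limma unadjusted p = 0.0414, adjusted p = 0.918) and *Ptpro*, which encodes a receptor phosphatase, by -0.43 (SE 0.26). Endothelial genes were higher in 1 and lower in 7 of 8, with a median of -0.39, and *Ehd3* and *Tek* differed by -0.63 (SE 0.34) and -0.44 (SE 0.25). Of 6 mesangial and smooth muscle genes 2 were higher and 4 lower, with a median of -0.20, and 2 passed an unadjusted p of 0.05 in opposite directions, the smooth muscle actin gene *Acta2* (0.71, SE 0.26, limma adjusted p = 0.918) and the growth factor receptor gene *Pdgfrb* (-0.74, SE 0.32, limma adjusted p = 0.918). The part of the proximal tubule and glomerular markers in the values of *Umod* and *Scnn1a* was not tested. *Nphs1* was not analysed here.

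**Figure D4:**
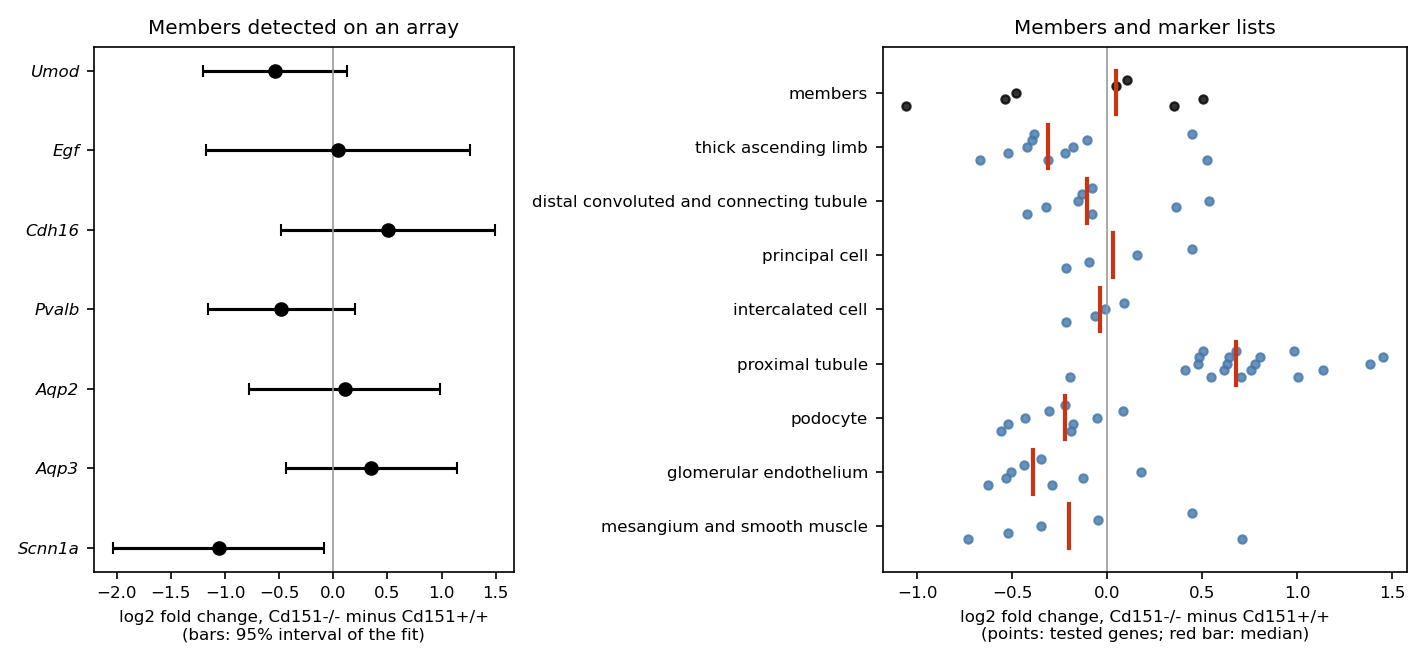
Left, log2 fold change (*Cd151*-/- minus *Cd151*+/+) of the 7 tested members with the 95% interval of the limma fit. Right, the same quantity for each tested gene of the members and of 8 marker lists, with red bars at the medians, which run from -0.39 for the glomerular endothelium to 0.67 for the proximal tubule, with the members at 0.04.

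Mouse by mouse, the median departure of the 7 members from their gene means was -0.20, -0.69, 0.39 and 0.67 in *Cd151*+/+ mice 1 to 4 and 0.30, -0.03, -0.46 and -0.63 in *Cd151*-/- mice 1 to 4. The 4 lower-background arrays were the lowest, whichever their genotype. The 27 other distal nephron genes gave 0.11, -0.36, -0.08 and 0.56 and 0.29, 0.16, -0.36 and -0.40, with *Cd151*+/+ mouse 4 again the highest. The proximal tubule genes gave -1.15, -0.83, -0.11 and 0.50 and 0.61, -0.15, -0.12 and 0.95, so *Cd151*-/- mouse 4, the lowest of the other distal genes, was the highest of the proximal ones.

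**Figure D5:**
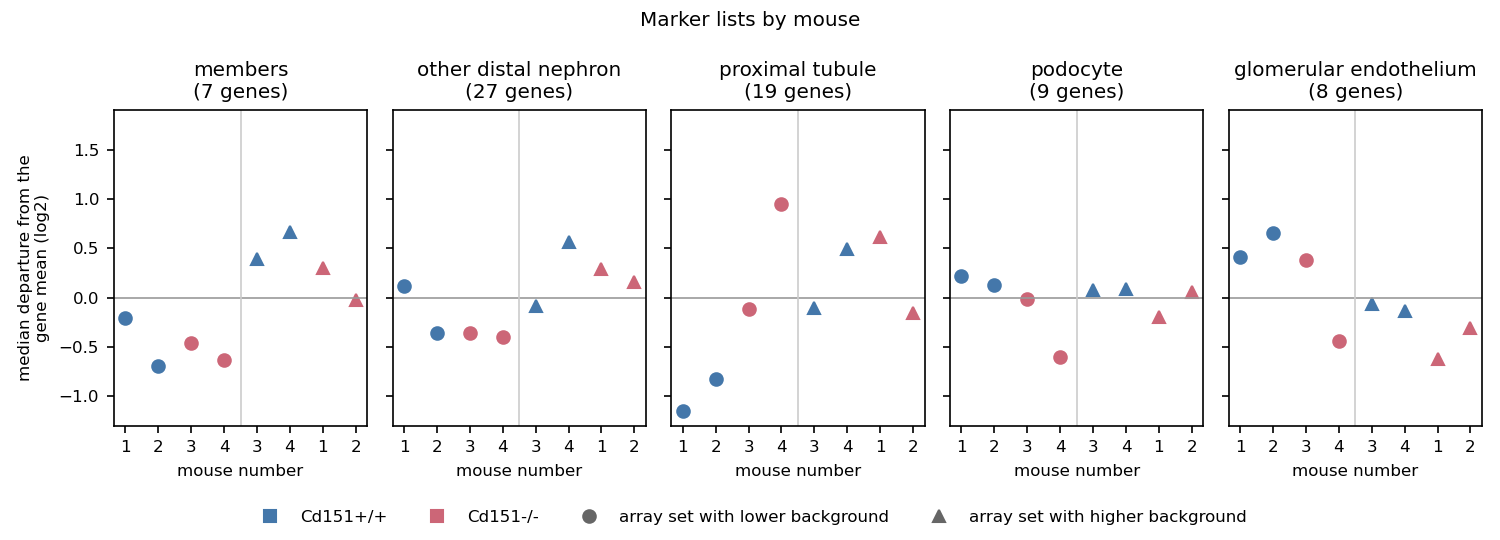
Median departure from the gene mean (log2) of the members and of 4 marker lists, 1 point per mouse, with the lower-background set left and the higher-background set right of the line in each panel. *Cd151*-/- mouse 4, the fourth point, lies at -0.63 for the members, 0.95 for the proximal tubule and -0.60 for podocytes.

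The 5 genes in no list whose signal over the 8 arrays was most like the mean of the 5 members detected throughout were *D630042F21Rik* (Pearson r = 0.97), *Aldoa*, which encodes the glycolytic enzyme aldolase A (0.96), the mitochondrial carrier gene *Slc25a30* (0.95), the kininogen gene *Kng2* (0.95) and *Prkaca*, a catalytic subunit of protein kinase A (0.94), among 9415 probes ranked. With the mean of each array set taken out, r was between 0.88 and 0.96. All 5 differed by 0.55 to 0.90 between the array sets, and none passed the genotype test (limma adjusted p of at least 0.918). These values describe likeness over the same 8 arrays and are the highest of many. Between the 5 members themselves the pairwise Pearson r ran from -0.44 (*Cdh16* and *Scnn1a*) to 0.89 (*Umod* and *Scnn1a*). Their mean is therefore not a signal that all 5 share.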

How the data were processed

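Glomerular RNA of 8 mice was amplified, biotin-labelled and hybridised by the authors to 1 array each and read with Illumina software, GenomeStudio per the labels. They deposited the signal intensity of each probe, neither background-subtracted nor normalised, and a detection p-value. Replicates are separate mice. Here, in R 4.3.3 with limma 3.58.1, background was inferred from the detection p-values (798 steps), and neqc (offset 16, quantile normalisation, log2) and lmFit with eBayes were run on the 14967 probes detected on at least 1 array, adjusting p-values by Benjamini-Hochberg across all of these. Single members were also tested by two-sided exact permutation over 70 relabelings. The brightest probe by mean stood for a gene. The array number and signal over background (3.0 to 4.5 times at the median detected probe) limit precision. Members, lists and tests were chosen with earlier results of these data known. Named were all members, the 2 genes of lowest p in each list, defining genes of each cell (1 is not reported here) and the 5 most alike. Symbols of 4 listed genes were matched through synonyms. The fit was tested on simulated data. Alternatives were other background, normalisation, filter, variance and block settings and each mouse left out. The array sets, and the genotype-by-set test, were defined after seeing the data.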

Additional observations from a re-analysis of the deposited data

Results flagged for a closer look

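The *Umod* signal of *Cd151*-/- mouse 4, 13.15, stood apart from the other 3 mice of its genotype at 13.90 to 14.03, with a gap of 0.85 of the group's whole range. Chance gives such a gap in about 1 in 20 groups of 4, and 14 groups were looked at. The dimmer *Umod* probe was not among these groups. It read 13.08 in this mouse and 13.86 to 14.20 in the other 3. Without this mouse the genotype difference of *Umod* was -0.33 (limma unadjusted p = 0.286).

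The genotype difference of *Aqp3* changed direction between the array sets. The difference in the higher-background set minus that in the lower-background set was -1.48 (SE 0.44, limma unadjusted p = 0.00854, adjusted p = 0.977), and did not pass after adjustment.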

How the results depend on the processing

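No member passed Benjamini-Hochberg adjustment in any of the settings tried. The members past an unadjusted p of 0.05, 1 as reported, were 0 without a detection filter, 0 with the mouse number as a block, 2 with array weights (*Scnn1a* and *Cdh16*, the latter at 1.21) and 0 to 2 with 1 mouse left out. With array weights 4816 of all 14967 tested probes did so, against 643 as reported, so the 2 members do not stand out from the rest. *Scnn1a* stayed negative throughout, from -1.52 to -0.77 with a mouse left out and from -1.25 to -0.95 otherwise, and *Umod* from -0.74 to -0.33 with a mouse left out. Genotypes did not overlap for 0 to 2 members with a mouse left out, the 2 being *Scnn1a* and *Umod* without *Cd151*+/+ mouse 3. That mouse was the lowest of its genotype in both genes, and the share of all probes in this setting was not computed. The dimmer *Umod* probe still overlapped without it, with *Cd151*+/+ mouse 2 at 13.95 and *Cd151*-/- mouse 1 at 14.20. *Egf* ranged from -0.31 to 0.40 and *Aqp2* from -0.16 to 0.35 with a mouse left out, turning sign without *Cd151*+/+ mice 1 or 2 or *Cd151*-/- mice 1 or 2. With a mouse left out *Cdh16* ranged from 0.16 to 0.79, *Aqp3* from 0.10 to 0.57 and *Pvalb* from -0.66 to -0.27. Array weights gave 0.99 for *Egf* (limma unadjusted p = 0.0567) and 0.67 for *Aqp2* (limma unadjusted p = 0.065), and medians of 0.64 for the members and 0.12 for the thick ascending limb. With a mouse left out the medians were -0.31 to 0.28 for the members, -0.53 to -0.14 for the thick ascending limb, -0.19 to -0.02 for the distal convoluted and connecting tubule, -0.20 to 0.21 for principal and -0.23 to 0.14 for intercalated cells, 0.44 to 1.02 for the proximal tubule, -0.48 to -0.13 for podocytes, -0.59 to -0.22 for the endothelium and -0.46 to 0.12 for the mesangium, the last positive without *Cd151*-/- mouse 4 alone. Probes past an unadjusted p numbered 1094 without a filter, 420 with the mouse number as a block, 1690 with the array set as a block, 4816 with array weights and 339 to 1391 with a mouse left out, against 643, and 8 probes passed adjustment with the array set as a block, against 5. Mice with the same number did not deviate together (correlations -0.58, -0.40, -0.53 and -0.01). Their arrays always lay in different array sets, and the set difference was not taken out. These correlations therefore cannot show whether the numbers pair the mice. The causes of these changes were not tested.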
